A study of Fragaria vesca with 12 samples.

Results

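The genes described here are the xyloglucan endotransglucosylases and the expansins of the ripe fruit of *Fragaria vesca* 'Mara des Bois', a small-fruited strawberry. They were all the genes whose description in the table contains the words xyloglucan endotrans or expansin, and there were 66 of them among 34008 genes, 29 xyloglucan endotransglucosylases and 37 expansins. The rule used the descriptions only and no measured value. Each gene is named by its identifier, in which the number before the letter g is the chromosome, and by its description, which for most follows the names of *Arabidopsis* genes. Several genes carry the same description, and reads of near-identical copies can be shared between them, so the split between copies is uncertain.

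RNA of whole fruit was sequenced in 4 conditions with 3 libraries each, and the labels state that a replicate was a mixture of at least 50 fruit. The fruit at harvest (AH) was sampled after 2 h, and the non-cold stored fruit (NCS) after 2 days at 20 °C and 80% relative humidity. The air-cold stored fruit (ACS) spent 7 days in air at 1 °C and 1 more day at 20 °C. The CO2-cold stored fruit (CCS) had the same 7 cold days and 1 warm day, but its first 2 cold days were under 18% CO2 with 18% O2 and 64% N2, followed by 5 days in air. According to the methods of the study, 1 container held all air-stored fruit and 1 all CO2-treated fruit, so that the gas and the container cannot be told apart. NCS differed from ACS and CCS in temperature and in length of storage together. The methods likewise name 1 chamber for the NCS fruit. The p-values below set differences against the spread between these libraries, and not against that between repeated storage runs.

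Xyloglucan is the main hemicellulose of the primary wall of dicots, where it lies on and between cellulose microfibrils. Xyloglucan endotransglucosylases/hydrolases (XTHs), also called xyloglucan endotransglycosylases (XETs), cut a xyloglucan chain and join the new end to another chain, and some of them hydrolyse it instead. Expansins carry no known hydrolytic activity, and they loosen the contacts between cellulose and xyloglucan so that the wall can creep. Alpha-expansins (EXPA) and beta-expansins (EXPB) have this activity, while for the expansin-like proteins of the A (EXLA) and B (EXLB) groups it has not been shown. Both families act in growing tissue, and in fleshy fruit they are known for their part in the loss of firmness during ripening.

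The values are RPKM, which divide the reads of a gene by its length in kilobases and by the size of the library. The leading expansin, the expansin A8 gene FvH4_7g25860, was at 2587 ± 217 RPKM (mean ± SD, n = 3) for AH, 1389.8 ± 65.2 for NCS, 1317 ± 38.9 for ACS and 1859 ± 80.3 for CCS. The leading XTH, the XET 6 gene FvH4_4g06700, was at 127 ± 14.1, 391 ± 8.56, 374 ± 11 and 304 ± 1.46 RPKM in the same order. Behind these, XTH 4 and XTH 6 were high in AH and low in NCS, a pair of XTH 16 genes and XTH 30 were higher in the stored fruit than in AH, and an expansin A4 gene had its highest level in CCS and its lowest in NCS.

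Quantitative PCR was also run on 5 of these genes, and the primers are shown because they mark the members that were chosen for a second measurement, among them those with the clearest differences between ACS and CCS described further on. They are given 5′ to 3′, forward before reverse, in lower case throughout since no base is singled out. The genes lie on chromosomes 3, 5 and 6 by their identifiers.
FvH4_6g38170 (XTH 15), forward: aagccaatgcttgtcttgc
FvH4_6g38170 (XTH 15), reverse: accttgcgggaatcgttta
FvH4_5g23180 (XTH 30), forward: gaagcttgcctacctcaacg
FvH4_5g23180 (XTH 30), reverse: tcttgaaccgtgccttctct
FvH4_3g36410 (expansin A4), forward: ccaggactggctggatgag
FvH4_3g36410 (expansin A4), reverse: ttctttccggtgaaagtctga
FvH4_5g20290 (expansin-like B1), forward: ggacactcaaagcccacct
FvH4_5g20290 (expansin-like B1), reverse: gagctgaatgtctgatgtataggc
FvH4_5g21120 (expansin-like B1), forward: tcagcagcctctgacctcttt
FvH4_5g21120 (expansin-like B1), reverse: cgctcgttggctgaggata

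The libraries held 64200000 to 119900000 reads, as recovered from the steps of the RPKM values, and 10 reads on a gene of median length corresponded to 0.0338 to 0.0632 RPKM. Genes described as chalcone synthase, dihydroflavonol 4-reductase or pectate lyase, taken as markers of ripe flesh, numbered 7, of which 1 was at 0 throughout, and their summed level was 205 to 236 RPKM for AH, 268 to 275 for NCS, 264 to 279 for ACS and 308 to 309 for CCS. The fruit also carries achenes, and the 68 genes described as oleosin, cruciferin or seed storage, of which 12 were at 0 throughout, summed to 11801 to 13032 RPKM for AH, 6257 to 6367 for NCS, 6055 to 7355 for ACS and 5804 to 6748 for CCS. The 52 photosystem genes summed to 89.3 to 113 RPKM for AH, 42.9 to 44.5 for NCS, 50.3 to 62.2 for ACS and 60 to 66.3 for CCS. In bulk RNA of this kind, fewer cells of a type and less RNA per cell cannot be told apart, and the part of these marker differences in the results below was not tested.

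The XTHs summed to 395 ± 1.44 RPKM for AH, 536 ± 8.73 for NCS, 671 ± 14.2 for ACS and 571 ± 18.2 for CCS (mean ± SD, n = 3). FvH4_4g06700 alone made up 29.2% to 36.0% of the sum of an AH library, 72.4% to 73.2% for NCS, 54.9% to 56.6% for ACS and 51.9% to 54.9% for CCS. The expansins summed to 2879 ± 235 RPKM for AH, 1616 ± 62.7 for NCS, 1517 ± 30.1 for ACS and 2017 ± 77.4 for CCS. Here the expansin A8 gene FvH4_7g25860 made up 85.1% to 92.6% of the sum in every library. Without it the other 36 expansins summed to 292 ± 17.7 RPKM for AH, 226 ± 7.78 for NCS, 200 ± 8.85 for ACS and 158 ± 3.59 for CCS, so that the sum of the rest was lowest in CCS, where the leading gene was above its levels in NCS and ACS.

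**Figure D1:**
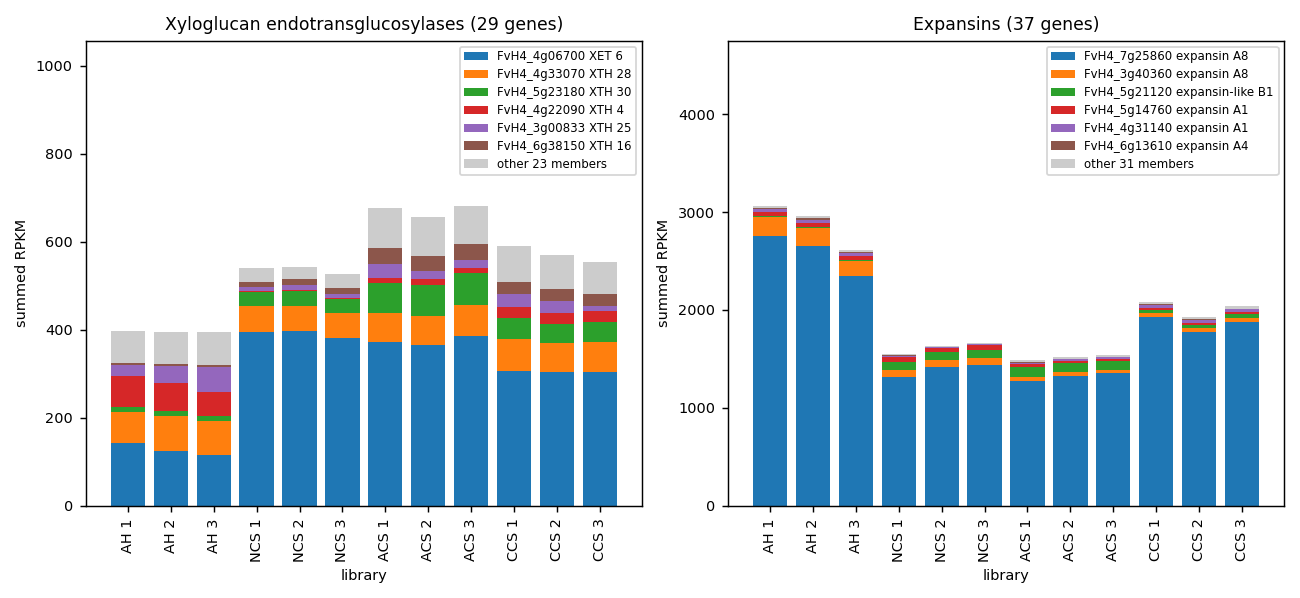
Summed RPKM of the 29 XTHs (left) and the 37 expansins (right) in each of the 12 libraries, with the 6 most abundant genes of each family in colour and the remaining members in grey. The XTH bars are lowest in the 3 AH libraries and highest in the 3 ACS libraries, and FvH4_7g25860 fills most of every expansin bar.

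Of the 66 members, 29 reached 0.5 RPKM in 3 or more of the 12 libraries and are described one by one, 15 XTHs and 14 expansins (11 alpha-expansins, 1 EXLA and 2 EXLB). None of the 5 beta-expansins did, and their highest single value was 0.222 RPKM. Of the other 37 members, 27 were below 0.1 RPKM in every library, 4 of them at 0 throughout, and the highest single value was 0.559 RPKM, for the expansin A22 gene FvH4_3g34000 in an ACS library. In terms of abundance, 16 members had a mean over 10 RPKM in at least 1 condition (10 XTHs and 6 expansins), and 4 had a mean over 100 RPKM (1 XTH and 3 expansins).

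Each pair of conditions was tested with limma on log2(RPKM + 0.1), leaving out genes with fewer than 3 of the 6 libraries of the pair at 0.5 RPKM or more, with p-values adjusted over all of these genes. Log2 fold changes set the second condition against the first, so that a negative value is a lower level in the second, and are written with ± their standard error. Because of the added 0.1 they understate the change of genes near or below that level. A gene is said to have risen or fallen where its adjusted p was 0.05 or less, and it is called a DEG where the log2 fold change was also at least 1.5 in size. Folds written as such are ratios of mean RPKM. Some genes passed the filter through the libraries of a single condition of the pair, as is said for each. Their test could hardly give the opposite direction, and their p-values are no separate support for the change.

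Among the XTHs, 4 of the measured genes carry the name XET 6. FvH4_4g06700 was at 143, 124 and 115 RPKM in the AH libraries, 395, 396 and 381 in NCS, 372, 364 and 386 in ACS and 306, 303 and 304 in CCS. It was the most abundant XTH in every library, and its AH libraries stood below all others. Against AH it rose in NCS by 1.63 ± 0.10 (adjusted p = 3.45e-05), in ACS by 1.56 ± 0.10 (adjusted p = 3.82e-05) and in CCS by 1.26 ± 0.10 (adjusted p = 0.00012). NCS and ACS overlapped. CCS was below both, with a log2 fold change of -0.36 ± 0.04 against NCS and -0.30 ± 0.05 against ACS (adjusted p = 0.000823 and 0.00702). Without AH replicate 3 the change in ACS was 1.49 and no longer reached the size required of a DEG.

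The neighbouring genes FvH4_3g00840 and FvH4_3g00850, also XET 6 and lying next to XTH 25 on chromosome 3, were less abundant and were lowest in NCS. FvH4_3g00850 was at 24.3, 22.7 and 24.4 RPKM in AH, 9.54, 8.38 and 10.3 in NCS, 27.6, 26.9 and 27.4 in ACS and 24.1, 24.6 and 22.9 in CCS. Its NCS libraries were below all others, it fell in NCS against AH (-1.33 ± 0.10, adjusted p = 8.27e-05), and it was higher by 1.53 ± 0.08 in ACS and 1.34 ± 0.08 in CCS than in NCS (adjusted p = 3.04e-05 and 5.36e-05). Its AH and CCS libraries overlapped. FvH4_3g00840 was at 18.5 ± 0.527 RPKM for AH, 13.9 ± 0.958 for NCS, 29 ± 1.45 for ACS and 24.4 ± 0.203 for CCS. It had the same lowest condition, but it rose against AH in both ACS (0.65 ± 0.08, adjusted p = 0.000701) and CCS (0.40 ± 0.07, adjusted p = 0.00523). The last of the 4, FvH4_4g09160, stayed below 1 RPKM, at 0.675 ± 0.105 for AH, 0.460 ± 0.0280 for NCS, 0.735 ± 0.184 for ACS and 0.594 ± 0.158 for CCS, and its fall in NCS (-0.46 ± 0.12, adjusted p = 0.0198) was lost without NCS replicate 1 or 2. In that comparison it passed the filter through its AH libraries only.

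The name XTH 16 is carried by 4 measured genes that did not share a pattern. FvH4_6g38150 was at 5.20, 4.83 and 4.83 RPKM in AH, 11.5, 12.7 and 12.8 in NCS, 34.5, 35.2 and 36.0 in ACS and 27.8, 26.9 and 27.1 in CCS. No library of one condition overlapped with those of another, and the order was AH, NCS, CCS, ACS from low to high. Against AH it rose by 1.30 ± 0.08 in NCS, 2.81 ± 0.07 in ACS and 2.44 ± 0.07 in CCS (adjusted p = 4.26e-05, 1.70e-06 and 3.29e-06). Its neighbour FvH4_6g38160 was at 0.141, 0.352 and 0.395 RPKM in AH, 1.62, 1.40 and 1.40 in NCS, 19.3, 19.6 and 20.0 in ACS and 19.6, 16.5 and 16.8 in CCS. From below 0.4 RPKM in each AH library it reached a mean 66.2 times that of AH in ACS and 59.5 times in CCS, with log2 fold changes of 5.70 ± 0.26 and 5.55 ± 0.27 (adjusted p = 9.71e-06 and 1.57e-05), and it was 13.3 and 12 times its NCS mean. The 2 cold-stored conditions overlapped, and the difference between them had a 95% interval of -0.34 to 0.03 (adjusted p = 0.171). In the comparisons with AH the gene passed the filter through the stored libraries only.

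FvH4_4g12960, XTH 16 as well, went the other way at a low level. It was at 0.603, 0.669 and 0.654 RPKM in AH, 0.0588, 0.0728 and 0.111 in NCS, 0.0744, 0.0774 and 0.0915 in ACS and 0.0315, 0.0781 and 0.0816 in CCS. The stored libraries overlapped with each other and held 35 to 45 reads a condition, against 421 reads in AH. The log2 fold changes against AH were -2.05 ± 0.12, -2.03 ± 0.08 and -2.19 ± 0.14 for NCS, ACS and CCS (adjusted p = 2.89e-05, 5.65e-06 and 4.76e-05). With 1 RPKM added in place of 0.1 they were -0.60, -0.60 and -0.63, so that none of these was then a DEG. The gene was named and tested through its AH libraries only, so that a fall was nearly the only change these tests could show.

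XTH 15 is a relative of XTH 16 that takes part in shade-induced petiole growth in *Arabidopsis*. FvH4_6g38170, the next gene of the same run on chromosome 6, was at 0.0752, 0.121 and 0.113 RPKM in AH, 0.657, 0.377 and 0.545 in NCS, 1.80, 1.78 and 1.69 in ACS and 0.506, 0.501 and 0.517 in CCS. The ACS libraries stood above all others, while NCS and CCS overlapped and AH was lowest. It rose against AH by 3.2 ± 0.11 in ACS and 1.59 ± 0.11 in CCS (adjusted p = 3.33e-06 and 6.11e-05), and ACS was above NCS by 1.59 ± 0.16 (adjusted p = 0.000477). CCS was 3.46 times below ACS, a log2 fold change of -1.61 ± 0.05 (adjusted p = 0.000122). The gene was carried by 42 reads in AH and 168 to 607 reads in the other conditions, and it was below the filter in AH against NCS. In the tests of ACS and CCS against AH it passed the filter through the cold-stored libraries only. When limma was run without the filter, it was a DEG higher in NCS than in AH (log2 fold change 1.61, adjusted p = 0.00189). Without AH replicate 1 its change in CCS against AH was just under the size of a DEG, at 1.49. With 1 RPKM added, the difference between ACS and CCS was -0.87, still with an adjusted p below the threshold but under the size of a DEG.

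XTH 4, which in *Arabidopsis* is active in expanding and in woody tissue, and XTH 6 were the XTHs with the deepest falls in NCS. FvH4_4g22090 (XTH 4) was at 68.9, 63.4 and 55.4 RPKM in AH, 2.85, 2.62 and 2.65 in NCS, 12.7, 12.7 and 12.8 in ACS and 25.8, 24.4 and 25.5 in CCS. The 4 conditions were fully apart, in the order NCS, ACS, CCS, AH from low to high. Its mean was 23.1 times lower in NCS than in AH (-4.48 ± 0.10, adjusted p = 1.36e-06), 4.91 times lower in ACS (-2.28 ± 0.10, adjusted p = 7.63e-06) and 2.48 times lower in CCS (-1.30 ± 0.10, adjusted p = 0.000114). CCS was 1.98 times above ACS (0.98 ± 0.05, adjusted p = 0.000278), the only XTH that rose in that comparison.

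FvH4_1g18550 (XTH 6) was at 23.3, 26.5 and 22.9 RPKM in AH, 1.18, 1.46 and 1.35 in NCS, 3.90, 3.27 and 2.81 in ACS and 3.33, 3.49 and 3.53 in CCS. AH was above and NCS below all other libraries, as in XTH 4, but here ACS and CCS overlapped. Against AH the log2 fold changes were -4.09 ± 0.11 in NCS, -2.84 ± 0.13 in ACS and -2.77 ± 0.09 in CCS (adjusted p = 1.81e-06, 1.04e-05 and 3.51e-06). CCS against ACS gave 0.06 ± 0.12 with a 95% interval of -0.22 to 0.34.

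XTH 30, which in *Arabidopsis* has been tied to the response to salt, was read from FvH4_5g23180. It was at 12, 11.1 and 10.6 RPKM in AH, 32.2, 35.5 and 32.7 in NCS, 67.7, 71.1 and 72.5 in ACS and 47.7, 42.7 and 44.4 in CCS. The conditions were fully apart, in the same order of AH, NCS, CCS and ACS as FvH4_6g38150. The rises against AH were 1.57 ± 0.09, 2.64 ± 0.08 and 1.99 ± 0.09 for NCS, ACS and CCS (adjusted p = 2.17e-05, 2.74e-06 and 1.08e-05). CCS was below ACS (-0.65 ± 0.06, adjusted p = 0.00131). FvH4_4g33070 (XTH 28), a gene whose *Arabidopsis* namesake is needed for stamen filament growth, was the second XTH by level in AH, NCS and CCS. It was at 75.8 ± 5.06 RPKM for AH, 57.0 ± 1.34 for NCS, 67.7 ± 1.94 for ACS and 69.5 ± 2.46 for CCS. It fell in NCS (-0.41 ± 0.08, adjusted p = 0.0079), and CCS against ACS gave 0.04 ± 0.05 with a 95% interval of -0.09 to 0.16.

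FvH4_4g09150, described only as an XTH family protein and with a gene model of 309 bp, was carried by few reads. It was at 0.260, 0.297 and 0.116 RPKM in AH, 0, 0.132 and 0.151 in NCS, 1.53, 0.844 and 0.570 in ACS and 1.76, 2.14 and 1.19 in CCS, from 21, 6, 81 and 127 reads in all. AH and NCS overlapped, ACS and CCS overlapped, and both cold-stored conditions were above both others. The log2 fold change was 1.69 ± 0.37 in ACS and 2.48 ± 0.29 in CCS against AH, and 2.49 ± 0.45 and 3.28 ± 0.39 against NCS (adjusted p = 0.0104, 0.000736, 0.005 and 0.000783). The change in ACS against AH was 1.42 without AH replicate 3 and 1.34 without ACS replicate 1, below the size of a DEG. In all of these comparisons the gene passed the filter through the cold-stored libraries only.

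**Figure D2:**
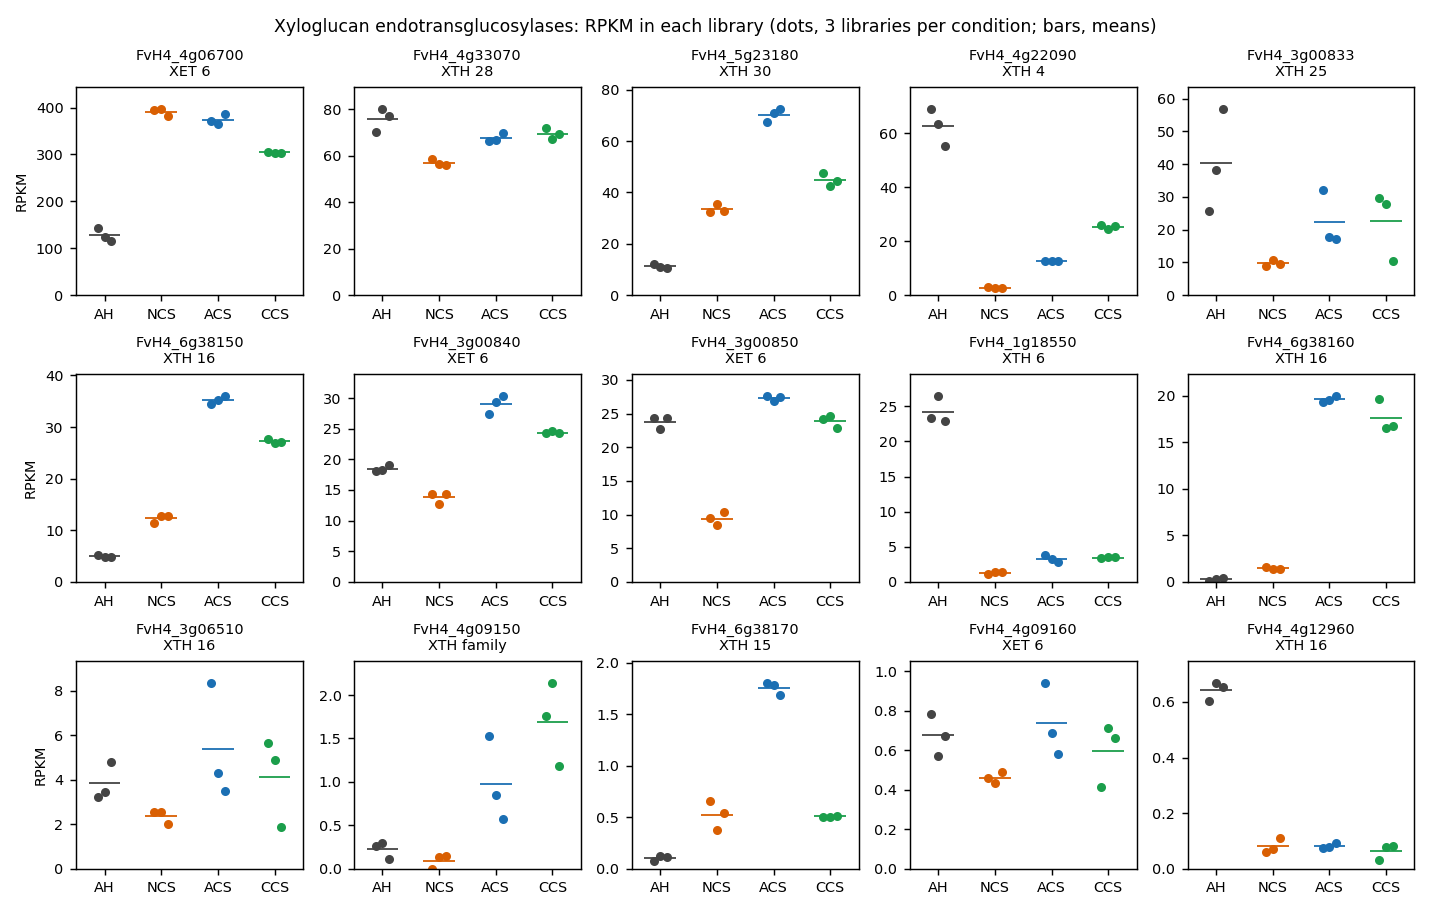
RPKM (linear axis from 0) of the 15 XTHs that reached 0.5 RPKM in at least 3 libraries, 1 panel per gene, with 1 dot per library and a bar at the mean of 3 libraries. XTH 4 and XTH 6 are highest in AH and lowest in NCS, XTH 30 and both FvH4_6g38150 and FvH4_6g38160 are lowest in AH, and XTH 15 is highest in ACS.

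A pair of XTHs differed between libraries of one condition, as 9 oleosin and cruciferin genes also did. FvH4_3g00833 (XTH 25) was at 25.8, 38.1 and 56.8 RPKM in AH, 8.82, 10.8 and 9.55 in NCS, 32.1, 17.9 and 17.3 in ACS and 29.6, 27.9 and 10.3 in CCS. FvH4_3g06510 (XTH 16) was at 3.22, 3.47 and 4.82 RPKM in AH, 2.54, 2.57 and 1.99 in NCS, 8.35, 4.30 and 3.5 in ACS and 5.64, 4.90 and 1.87 in CCS. The 9 oleosin and cruciferin genes, which are storage genes of the seed inside the achene, summed to 1341, 1249 and 1742 RPKM in AH, 364, 408 and 308 in NCS, 2109, 999 and 996 in ACS and 1676, 1529 and 516 in CCS. In all 3 measures AH replicate 3, ACS replicate 1 and CCS replicate 1 were the highest libraries of their condition, CCS replicate 3 was far below the other CCS libraries, and the NCS libraries were below all AH libraries. These 9 genes are a chosen part of the 68 achene genes summed further above, so the likeness to the XTHs rests on that choice. In the full list AH (11801 to 13032 RPKM) was above every stored library, while the 9 genes in ACS replicate 1 were above all AH libraries. The sum of all 68 in NCS (6257 to 6367 RPKM) lay within the ranges of ACS (6055 to 7355) and CCS (5804 to 6748). The full list thus did not set NCS apart from the cold-stored fruit, as the 9 genes did. The share of seed RNA in these values was not tested. FvH4_3g00833 fell in NCS against AH (-1.97 ± 0.27, adjusted p = 0.00143) and was above NCS in ACS (1.14 ± 0.24, adjusted p = 0.00934), while CCS overlapped with NCS (adjusted p = 0.0631) and both cold-stored conditions overlapped with AH. FvH4_3g06510 fell in NCS by 0.66 on the log2 scale (adjusted p = 0.0243), a call that was lost in the fit of all 12 libraries and without AH replicate 2 or any 1 of the NCS libraries.

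**Figure D3:**
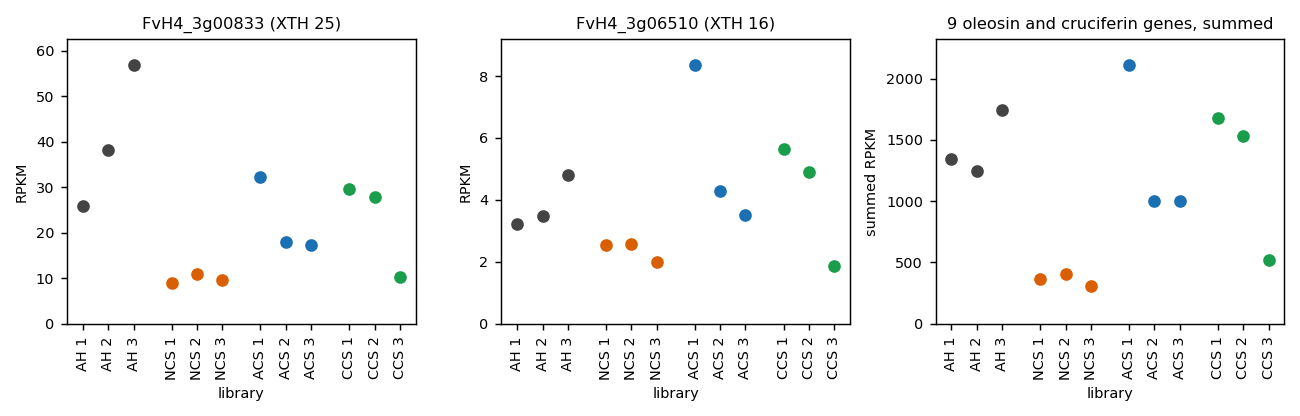
RPKM in each of the 12 libraries of FvH4_3g00833 (XTH 25, left), FvH4_3g06510 (XTH 16, middle) and, summed, 9 oleosin and cruciferin genes (right), on linear axes from 0 with 1 dot per library. ACS replicate 1 and CCS replicate 3 stand apart from the other libraries of their condition in all 3 panels.

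Among the alpha-expansins, the 2 measured genes named expansin A8 were the most abundant in AH. FvH4_7g25860 was at 2759.6, 2658 and 2343 RPKM in AH, 1315, 1419 and 1435 in NCS, 1275, 1326 and 1351 in ACS and 1928, 1771 and 1879 in CCS. AH was highest and CCS next, both apart from NCS and ACS, which overlapped. It fell against AH, with log2 fold changes of -0.89 ± 0.09 in NCS, -0.97 ± 0.09 in ACS and -0.47 ± 0.09 in CCS (adjusted p = 0.000376, 0.00021 and 0.00747), and CCS was 1.41 times ACS (0.50 ± 0.05, adjusted p = 0.00215). FvH4_3g40360 was at 189, 177 and 159 RPKM in AH, 73.2, 73.2 and 74.9 in NCS, 34.6, 34.9 and 35.0 in ACS and 38.6, 39.7 and 40.2 in CCS. It fell in the fruit of all stored conditions, the log2 fold change being -2.32 ± 0.09 in ACS, -2.14 ± 0.09 in CCS and -1.24 ± 0.09 in NCS against AH (adjusted p = 5.01e-06, 9.52e-06 and 7.27e-05), and both cold-stored conditions were below NCS (-1.08 ± 0.04 and -0.90 ± 0.04, adjusted p = 1.17e-05 and 1.96e-05). Its small difference between ACS and CCS (0.18 ± 0.04, adjusted p = 0.0276) was lost under median-of-ratios scaling (adjusted p = 0.202) and without the filter (adjusted p = 0.0735).

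Expansin A4 is the description of 3 measured genes, which differed in level and in pattern. FvH4_3g36410 was at 4.19, 4.18 and 3.68 RPKM in AH, 0.577, 0.513 and 0.715 in NCS, 2.75, 3.11 and 3.05 in ACS and 8.37, 8.47 and 7.57 in CCS. The conditions were fully apart, in the order NCS, ACS, AH, CCS from low to high. Its mean in CCS was 13.5 times that in NCS (3.56 ± 0.11, adjusted p = 4.06e-06), 2.74 times that in ACS (1.43 ± 0.07, adjusted p = 0.000306) and 2.03 times that in AH (1.00 ± 0.09, adjusted p = 0.000249). In NCS it was 6.68 times lower than in AH (-2.56 ± 0.12, adjusted p = 1.33e-05). FvH4_6g13610 was at 14.9, 15.7 and 13.2 RPKM in AH, 4.14, 4.11 and 3.75 in NCS, 3.15, 4.13 and 3.30 in ACS and 4.82, 4.54 and 4.55 in CCS. It was high in AH and between 3.14 and 4.13 times lower in the 3 stored conditions, with log2 fold changes of -1.84 ± 0.09, -2.02 ± 0.13 and -1.63 ± 0.09 for NCS, ACS and CCS (adjusted p = 1.68e-05, 3.52e-05 and 2.77e-05). FvH4_7g22700 was at 0.803 ± 0.0975 RPKM for AH, 1.1 ± 0.168 for NCS, 1.34 ± 0.154 for ACS and 1.81 ± 0.292 for CCS, and rose against AH in ACS (0.67 ± 0.12, adjusted p = 0.00419) and CCS (1.08 ± 0.14, adjusted p = 0.00131).

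Expansin A1, which in *Arabidopsis* acts in the opening of stomata, is likewise the name of 3 measured genes. FvH4_6g48210 was at 0.711, 0.922 and 1.01 RPKM in AH, 0.173, 0.201 and 0.267 in NCS, 0.988, 0.828 and 1.03 in ACS and 1.06, 1.1 and 1.15 in CCS. NCS was below all other libraries, with a log2 fold change of -1.64 ± 0.16 against AH (adjusted p = 0.000274), while ACS and CCS were 1.75 ± 0.13 and 1.95 ± 0.11 above NCS (adjusted p = 0.000116 and 3.59e-05). With 1 RPKM added these were -0.63, 0.68 and 0.79, no longer of the size of a DEG. Its NCS libraries were all below the filter level, so that it entered each of these tests through the other condition only. FvH4_4g31140 was lowest in NCS at a higher level, with 29.95 ± 2.78 RPKM for AH, 11.4 ± 0.712 for NCS, 20.3 ± 1.53 for ACS and 30.5 ± 1.29 for CCS. It fell in NCS (-1.38 ± 0.10, adjusted p = 7.39e-05) and in ACS (-0.56 ± 0.10, adjusted p = 0.00534), overlapped with AH in CCS, and was 1.5 times as high in CCS as in ACS (0.59 ± 0.07, adjusted p = 0.00312).

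The third, FvH4_5g14760, was the single named member whose NCS libraries were above all others. It was at 40.5 ± 1.61 RPKM for AH, 44.5 ± 2.11 for NCS, 19.5 ± 2.08 for ACS and 21.2 ± 1.30 for CCS. The difference between AH and NCS did not pass the test (adjusted p = 0.239), and the gene fell against AH in ACS (-1.06 ± 0.10, adjusted p = 0.000224) and CCS (-0.93 ± 0.08, adjusted p = 0.000221). Expansin A13 is the description of FvH4_3g13760, FvH4_1g27740 and FvH4_1g27660, none of which was a DEG in any comparison. FvH4_3g13760 was at 9.26 ± 0.831 RPKM for AH, 5.38 ± 0.582 for NCS, 6.58 ± 0.294 for ACS and 7.67 ± 0.109 for CCS, and it fell in NCS (-0.78 ± 0.11, adjusted p = 0.00182) and ACS (-0.49 ± 0.09, adjusted p = 0.00628). FvH4_1g27740 was between 0.737 and 1.19 RPKM and FvH4_1g27660 between 0.621 and 1.87 RPKM over the 12 libraries. Both were lower in NCS than in AH (-0.40 ± 0.09 and -0.75 ± 0.20, adjusted p = 0.0145 and 0.0242), calls that were lost for FvH4_1g27740 without AH replicate 2 or NCS replicate 1 or 2, and for FvH4_1g27660 without AH replicate 1 or 2 or NCS replicate 1 or 3.

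The measured expansin-like genes were 2 named B1 and 1 named A1. FvH4_5g21120 (expansin-like B1) was at 12.5, 9.39 and 8.50 RPKM in AH, 83.9, 75.3 and 84.0 in NCS, 111, 97.3 and 94.8 in ACS and 33.3, 37.7 and 38.4 in CCS. The conditions did not overlap, AH being lowest, then CCS, NCS and ACS, and it was the second expansin by level in NCS and ACS. Its mean was 7.99 times that of AH in NCS (3.00 ± 0.15, adjusted p = 1.56e-05), 9.97 times in ACS (3.32 ± 0.16, adjusted p = 1.04e-05) and 3.59 times in CCS (1.85 ± 0.16, adjusted p = 0.000165). CCS was 2.77 times below ACS (-1.47 ± 0.09, adjusted p = 0.000416), just under the size of a DEG, which it reached under median-of-ratios scaling (-1.54), and 2.22 times below NCS (-1.15 ± 0.08, adjusted p = 7.34e-05).

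FvH4_5g20290, also expansin-like B1, was at 0.230, 0.227 and 0.261 RPKM in AH, 0.437, 0.377 and 0.591 in NCS, 2.37, 1.66 and 1.91 in ACS and 0.431, 0.650 and 0.741 in CCS. Its ACS libraries were above all others and its AH libraries below, while NCS and CCS overlapped. It was 8.27 times higher in ACS than in AH (2.60 ± 0.14, adjusted p = 1.54e-05) and 3.26 times lower in CCS than in ACS (-1.57 ± 0.20, adjusted p = 0.00374). The latter was -1.44 without ACS replicate 1 and -1.38 without CCS replicate 1, in both cases below the size of a DEG but past the threshold on the adjusted p (0.0141 and 0.00784). With 1 RPKM added it was -0.89 (adjusted p = 0.0014), and ACS against AH was 1.26, neither of the size of a DEG. In ACS against AH the gene passed the filter through its ACS libraries only. The single expansin-like A1 gene, FvH4_2g16110, was at 3.93, 3.62 and 3.56 RPKM in AH, 1.42, 1.03 and 1.00 in NCS, 3.21, 2.96 and 2.88 in ACS and 2.65, 2.38 and 2.05 in CCS. In contrast to the expansin-like B1 genes it was highest in AH and lowest in NCS, where its log2 fold change against AH was -1.62 ± 0.14 (adjusted p = 0.000161).

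**Figure D4:**
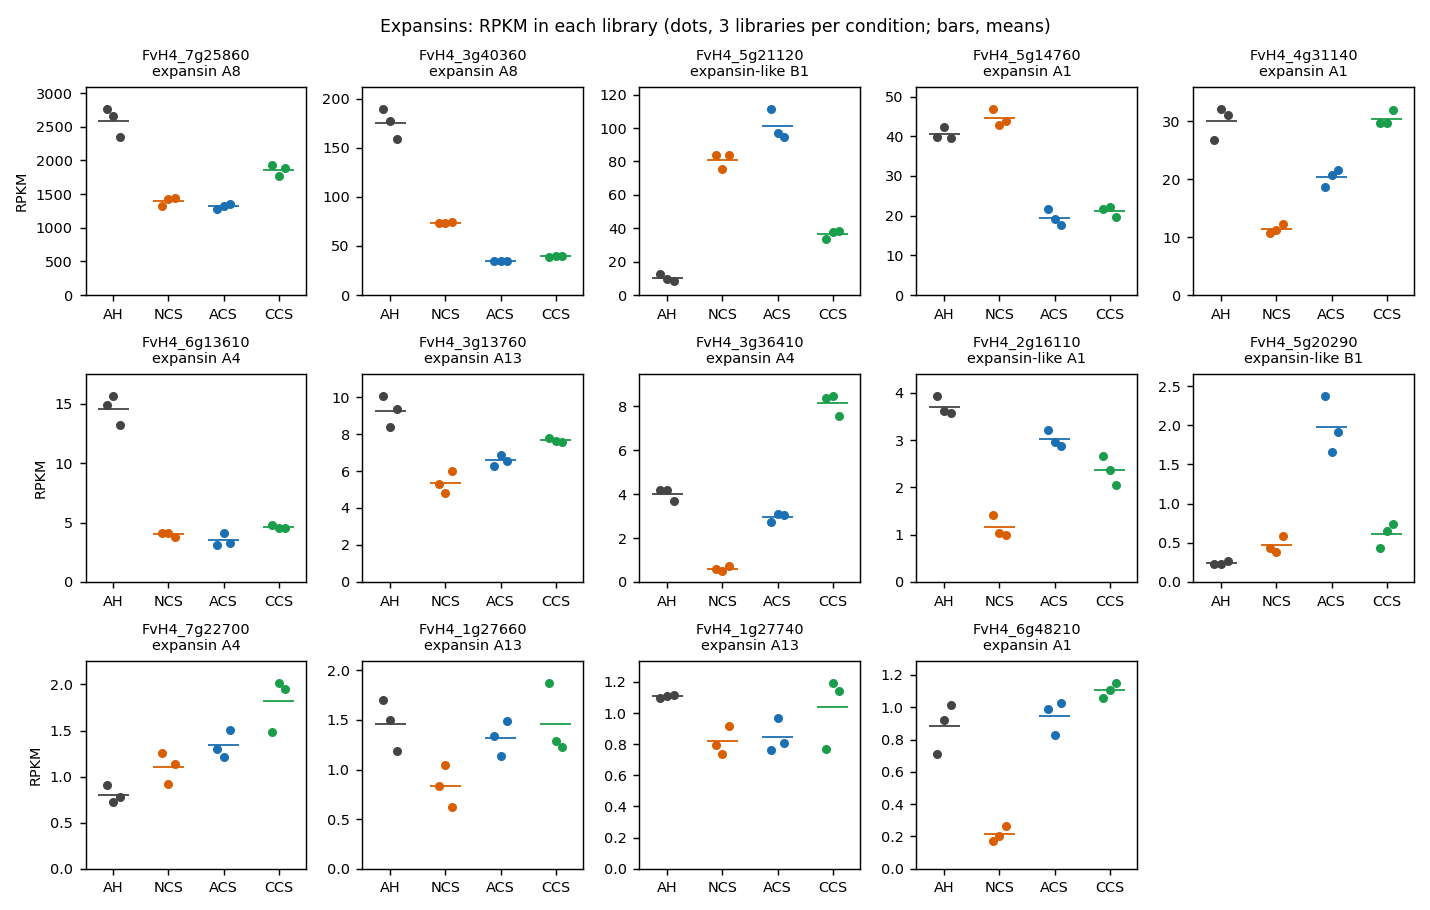
RPKM (linear axis from 0) of the 14 expansins that reached 0.5 RPKM in at least 3 libraries, 1 panel per gene, with 1 dot per library and a bar at the mean of 3 libraries. Both expansin A8 genes are highest in AH, the expansin A4 gene FvH4_3g36410 is highest in CCS and lowest in NCS, and both expansin-like B1 genes are highest in ACS.

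Below the level at which members were named, XTH 9 (FvH4_6g43860), XTH 10 (FvH4_2g02970) and the expansin A20 gene FvH4_2g17030 had the most reads, 499, 419 and 303 over all libraries. A pair of alpha-expansins, named after their values were seen, had nearly all their reads in the cold-stored fruit. FvH4_3g34000 (expansin A22) was at 0, 0.0353 and 0 RPKM in AH, 0.0279, 0.0346 and 0.0528 in NCS, 0.316, 0.399 and 0.559 in ACS and 0.329, 0.411 and 0.203 in CCS. FvH4_6g47032 (expansin A23) had 0 reads in the 6 libraries of AH and NCS, 60 reads in ACS (0.449, 0.340 and 0.536 RPKM) and 43 in CCS (0.280, 0.320 and 0.355 RPKM). Set against 3 reads over the group, FvH4_6g47032 was at least 23.2-fold higher in ACS and 16.9-fold higher in CCS than in AH, and at least 18.3-fold and 13.3-fold higher than in NCS. The library totals exceed the read pairs that the study gives, so mates were probably counted apart and these bounds may be too high. When limma was run without a filter, both genes were called DEGs in these 4 comparisons, of ACS and CCS with AH and NCS. In that case they are added to the DEGs counted below. These calls cannot test the pattern, because the genes were picked on the same values. For FvH4_6g47032 all AH and NCS libraries were at 0, so that the added 0.1 alone set their level and they had no spread.

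AH against NCS shows what differed after 2 days at ambient temperature. XTH 4, XTH 6, XTH 25 and the XTH 16 gene FvH4_4g12960 were lower in NCS, as were the expansin A4 genes FvH4_3g36410 and FvH4_6g13610, expansin-like A1 and the expansin A1 gene FvH4_6g48210, while FvH4_4g06700, XTH 30, FvH4_6g38160 and the expansin-like B1 gene FvH4_5g21120 were higher. Of the 26 members that were tested, 12 were DEGs, 4 higher and 8 lower, against 3.98% higher and 2.36% lower of the 16092 genes tested. By family, 3 of 13 tested XTHs were DEGs higher and 4 lower, and 1 of 13 tested expansins was higher and 4 were lower. On the adjusted p alone 4 XTHs rose and 9 fell, and 1 expansin rose and 10 fell, against 14.7% and 21.4% of all genes tested. The median log2 fold change was -0.46 over the tested XTHs, -0.89 over the tested expansins and -0.07 over all genes tested. Members enter the test only if they were above the filter in enough libraries, and 9 of the 12 DEGs were at 0.5 RPKM or more in all 6 libraries. Of the 12, 7 were DEGs with 1 RPKM added, the calls of XTH 30, FvH4_4g12960, FvH4_6g38160, FvH4_2g16110 and FvH4_6g48210 falling below the size.

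The comparisons of AH with ACS and with CCS ask what differed after cold storage and 1 day at 20 °C, and they share the AH libraries with the comparison above and with each other. XTH 30, XTH 15, FvH4_6g38150, FvH4_6g38160, FvH4_4g09150 and FvH4_5g21120 were DEGs higher in both ACS and CCS, and XTH 6, FvH4_4g12960, the expansin A8 gene FvH4_3g40360 and the expansin A4 gene FvH4_6g13610 were DEGs lower in both. FvH4_4g06700 and FvH4_5g20290 were further DEGs higher in ACS and XTH 4 a further DEG lower, while in CCS FvH4_4g06700 and XTH 4 passed the adjusted p at a smaller size and FvH4_5g20290 was below the filter. In ACS 13 of 29 tested members were DEGs, 8 higher and 5 lower, against 7.15% and 1.4% of 16672 genes, with 6 XTHs higher and 3 lower of 15 tested and 2 expansins higher and 2 lower of 14. In CCS 10 of 28 were DEGs, 6 higher and 4 lower, against 5.47% and 1.15% of 16622 genes, with 5 XTHs higher and 2 lower of 15 and 1 expansin higher and 2 lower of 13. On the adjusted p alone 7 XTHs rose and 3 fell and 3 expansins rose and 9 fell in ACS (21.9% and 20.9% of all genes), and 7 XTHs rose and 3 fell and 3 expansins rose and 5 fell in CCS (23.6% and 13.9%). The medians were 0.40 for XTHs and -0.39 for expansins in ACS (0.01 over all genes), and 0.00 and -0.11 in CCS (0.07 over all genes). All 6 libraries were at 0.5 RPKM or more for 8 of the 13 and 6 of the 10 DEGs. When 1 RPKM was added, 9 of the 13 and 6 of the 10 were DEGs, XTH 15, FvH4_4g09150 and FvH4_4g12960 being below the size in both, FvH4_5g20290 in ACS and FvH4_6g13610 in CCS.

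Set against NCS, no member was a DEG lower in the cold-stored fruit. XTH 4, FvH4_6g38160, FvH4_4g09150, the expansin A4 gene FvH4_3g36410 and the expansin A1 gene FvH4_6g48210 were DEGs higher in both ACS and CCS, and FvH4_3g00850, FvH4_6g38150, XTH 15 and FvH4_5g20290 in ACS. In ACS these were 9 of 28 tested members (6 of 14 XTHs and 3 of 14 expansins), against 3.1% higher and 0.226% lower of 16341 genes, and in CCS 5 of 27 (3 of 13 XTHs and 2 of 14 expansins), against 3.05% and 0.677% of 16405 genes. On the adjusted p alone 13 of the 14 tested XTHs rose and 0 fell in ACS and 8 expansins rose and 2 fell, against 30.9% and 17.1% of all genes. In CCS 9 XTHs rose and 1 fell, and 9 expansins rose and 3 fell, against 37.6% and 14.0%. The median log2 fold changes were 1.20 for XTHs and 0.30 for expansins in ACS (0.08 over all genes), and 1.07 and 0.47 in CCS (0.14 over all genes). Of these DEGs, 5 of 9 and 3 of 5 were at 0.5 RPKM or more in all 6 libraries. Adding 1 RPKM left 2 of the 9 (XTH 4 and FvH4_6g38160) and 3 of the 5 (these and FvH4_3g36410) as DEGs. The change in ACS was then 1.31 for FvH4_3g36410, 1.45 for FvH4_3g00850 and 1.45 for FvH4_6g38150. Leaving out NCS replicate 1 or ACS replicate 3 took FvH4_6g38150 to 1.46 or 1.49 in ACS, and leaving out NCS replicate 2 took FvH4_3g00850 to 1.45 and XTH 15 to 1.41, below the size of a DEG. Smaller calls in these comparisons depended on the scaling and the filter, and those of XTH 28 in both, of FvH4_5g21120 and FvH4_3g13760 in ACS and of FvH4_1g27660 in both were lost under median-of-ratios scaling. Without the filter on low values those of FvH4_1g27660 in both, of FvH4_3g06510 and FvH4_3g13760 in ACS and of FvH4_6g13610 in CCS were lost.

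ACS against CCS asks what differed with the CO2 pretreatment, within the limit of a single container each. XTH 15 and the expansin-like B1 gene FvH4_5g20290 were DEGs, both lower in CCS, against 0.294% of 16680 genes lower and 0.024% higher. All 6 libraries were at 0.5 RPKM or more for 1 of these 2 DEGs. In CCS both lay near that level, XTH 15 at 0.501 to 0.517 RPKM and FvH4_5g20290 at 0.431 to 0.741. With 1 RPKM added the log2 fold changes were -0.87 for XTH 15 (FvH4_6g38170) and -0.89 for FvH4_5g20290, and 0 members were DEGs, while both passed the threshold on the adjusted p (5.92e-05 and 0.0014). Among the 14 tested XTHs, 6 fell and 1 rose on the adjusted p, the falls being XTH 15, XTH 30, FvH4_6g38150 and the XET 6 genes FvH4_4g06700, FvH4_3g00840 and FvH4_3g00850 and the rise XTH 4. Among the 14 tested expansins 6 were higher and 3 lower. The rises were FvH4_3g36410, FvH4_4g31140, FvH4_7g25860, FvH4_6g13610, FvH4_3g13760 and FvH4_3g40360, all alpha-expansins, and the falls were the 3 expansin-like genes. Over all genes tested 18.4% rose and 10.3% fell. The median was -0.22 for XTHs, 0.21 for expansins and 0.07 for all genes. The smallest of these calls depended on the settings. Those of FvH4_6g13610, FvH4_3g13760, FvH4_3g40360, FvH4_2g16110, FvH4_3g00840 and FvH4_3g00850 were lost without the filter on low values (adjusted p between 0.0502 and 0.0969), which left 4 XTHs lower and 1 higher, and 3 expansins higher and 2 lower. Each of these calls was also lost when 1 of several libraries was left out, and the first 3 under median-of-ratios scaling.

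**Figure D5:**
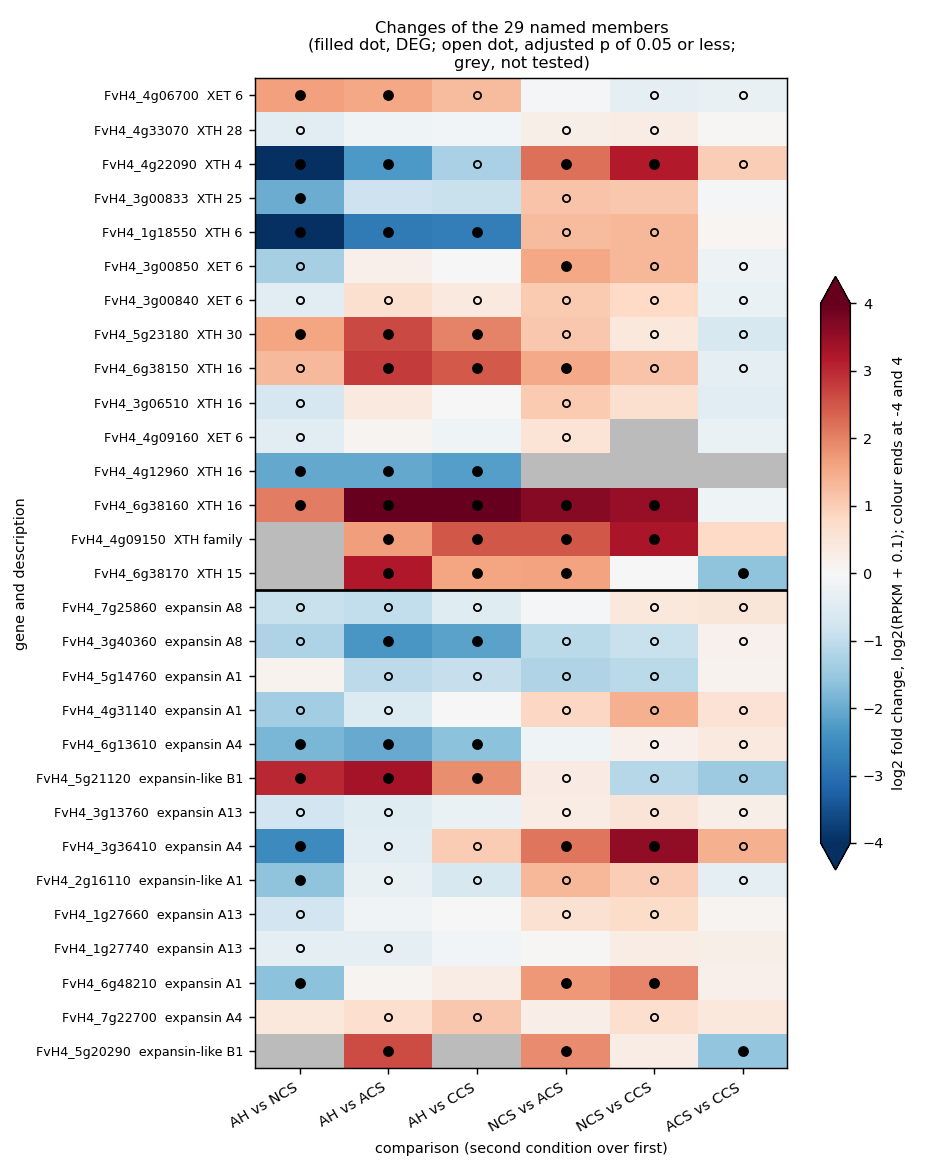
Log2 fold changes of the 29 named members in the 6 comparisons (second condition over first, colour scale from -4 to 4), XTHs above the line and expansins below. Filled dots mark DEGs, open dots an adjusted p of 0.05 or less and grey cells members below the filter. The column ACS vs CCS has 2 filled dots, for XTH 15 and the expansin-like B1 gene FvH4_5g20290.

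Over the 4 conditions together, 11 of the 29 named members had all 3 NCS libraries below the 9 others, against 11.5% of the 17152 genes at 0.5 RPKM or more in 3 or more libraries. These were XTH 4, XTH 6, XTH 28, FvH4_3g00840 and FvH4_3g00850 and, among expansins, FvH4_3g36410, FvH4_4g31140, FvH4_6g48210, FvH4_3g13760, FvH4_1g27660 and FvH4_2g16110. AH was below all others in 8 (14.6% of all genes) and above all others in 8 (13.7%). ACS was above all others in 7 (8.02%), namely FvH4_3g00840, FvH4_3g00850, XTH 30, FvH4_6g38150, XTH 15 and both expansin-like B1 genes. CCS was above all others in 2 (9.09%), FvH4_3g36410 and FvH4_6g48210, and below all others in 0 (1.52%). NCS was above all others in 1 (5.25%), FvH4_5g14760, and ACS below all others in 1 (7.62%), FvH4_3g40360.

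By their identifiers the members lie on all 7 chromosomes, 21 of them on chromosome 6. Runs of members with at most 1 other gene between them numbered 8 and held 24 genes, 13 XTHs in 4 runs and 11 expansins in the other 4. The longest run has 5 XTHs on chromosome 6, of which FvH4_6g38150, FvH4_6g38160 and FvH4_6g38170 were measured and all rose in ACS and CCS against AH, while the next along, FvH4_6g38181 and FvH4_6g38190, had 1 and 13 reads in all 12 libraries. Their levels in ACS were unequal, at 35.2 ± 0.771, 19.6 ± 0.321 and 1.76 ± 0.0614 RPKM. Likewise, in the run of FvH4_3g00833, FvH4_3g00840 and FvH4_3g00850 on chromosome 3 all had their lowest mean in NCS. In the run of FvH4_4g09150, FvH4_4g09151 and FvH4_4g09160 on chromosome 4 the first and the last differed in pattern. FvH4_4g09151 (XET 6), too low to be named above, had means of 0.0834 RPKM for AH, 0.0494 for NCS, 0.165 for ACS and 0.215 for CCS. On 13 to 66 reads a condition its means were higher in the cold-stored fruit, but it was below the filter and was not tested, so no difference is read from them. Whether neighbours share reads cannot be read from the table.

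Other genes of xyloglucan synthesis and trimming are given for comparison. The synthesis list, of 19 genes described as cellulose synthase like C, xylosyltransferase, fucosyltransferase or with the word xyloglucan, had 15 tested genes in each comparison, and its DEGs were 1 in NCS, 2 in ACS and 2 in CCS against AH, 1 in each cold-stored condition against NCS and 0 between ACS and CCS, all higher in the second condition. They were FvH4_4g30950, a fucosyltransferase 1 (the enzyme that caps xyloglucan side chains with fucose in *Arabidopsis*), at 0.0527 ± 0.00842 RPKM for AH, 1.49 ± 0.203 for NCS, 2.06 ± 0.0816 for ACS and 1.32 ± 0.0808 for CCS, and FvH4_4g34630. The latter is described as xyloglucan:xyloglucosyl transferase 33, another name for the XTH activity that the rule did not catch, and it was at 3.93 ± 0.217, 2.14 ± 0.223, 29.1 ± 1.23 and 23.3 ± 1.27 RPKM. Its log2 fold change against AH was 2.86 in ACS and 2.54 in CCS (SE 0.08 for both). Over all genes tested, DEGs higher were 3.98%, 7.15% and 5.47% in NCS, ACS and CCS against AH. Against NCS they were 3.1% in ACS and 3.05% in CCS. With so few genes called, the counts are no result about the list as a whole. Some genes of this list act on the glycans of proteins and not on xyloglucan, as their descriptions name beta-1,2-xylosyltransferase or other fucosyltransferases. By its description FvH4_4g34630 is not a gene of synthesis either, but it stays in the counts and medians of the list. It was the only DEG of the list against NCS, in ACS as in CCS, and FvH4_4g30950 was the only one in NCS against AH.

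The trimming list held 20 genes described as alpha-xylosidase or beta-galactosidase, which remove xylose and galactose from xyloglucan and, in the case of the galactosidases, from other polymers. Of 10 or 11 tested genes, 2 were DEGs lower in NCS, 1 lower in ACS and 1 lower in CCS against AH, and 0 were higher. Against NCS 1 was lower in ACS, 1 was lower and 2 higher in CCS, and between ACS and CCS there were 0. The shares over all genes are those given above for each comparison. FvH4_4g27500 (alpha-xylosidase 1) was at 9.27 ± 1.45 RPKM for AH, 3.996 ± 0.325 for NCS, 1.02 ± 0.0254 for ACS and 1.1 ± 0.0848 for CCS. The beta-galactosidase genes FvH4_1g12350 and FvH4_2g39200 were lowest in NCS, at 0.711 ± 0.0546 and 3.70 ± 0.367 RPKM against 5.17 ± 1.33 and 20.8 ± 1.54 in AH, and were the 2 DEGs lower in NCS than in AH and higher in CCS than in NCS. All other DEGs of this list were calls of FvH4_4g27500. The medians of the tested genes were -0.22 for synthesis and -0.69 for trimming in NCS, -0.02 and -0.65 in ACS and 0.08 and -0.43 in CCS against AH.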

How the data were processed

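RNA-seq libraries of 4 conditions with 3 replicates each were grouped by the condition and number in their titles. Per the methods and the submitters' processing notes, the authors used CASAVA 1.8, FastQC, cutadapt 1.16.6 and HISAT2 2.1.0 on 50 bp paired reads, and counted reads per gene in SeqMonk without using strand, so that reads of overlapping or antisense genes cannot be told apart. The deposited RPKM values cover 34008 genes with no filter and no pooling, and 6 columns of the authors' own log2 fold changes, which are not used here. Gene descriptions were taken from the table. RefSeq identifiers matched 0 of the 66 members, so coordinates, promoters and proteins are not used here.

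Each RPKM value above 0 was a whole number of reads times a constant of the gene and library (100% of 30995 genes, within 0.2 read), which gave the library totals. The smallest gene length that gave whole numbers was taken. For a gene with reads in few libraries such a length is nearly always found, so the share is no check there and its reads are a lower bound. Counts are not the main measure, and the recovered reads served for depth and for an alternative. The 6 comparisons were fitted with limma 3.58.1 in R 4.3.3 (lmFit and eBayes without trend) on log2(RPKM + 0.1), each on the 6 libraries of the pair. Genes entered where 3 or more of these libraries were at 0.5 RPKM or above, with Benjamini-Hochberg adjustment over all of them. Intervals are 95% intervals from the model. The fit was run on simulated data for AH against NCS, where 196 of 200 genes given a log2 change of 2 among 15983 were called and 0 unchanged genes were. The simulated replicates had the same low biological spread for every gene, and the changed genes had a mean of at least 0.5 RPKM in AH. This shows that the code finds such changes, but it gives no error rate for noisier genes or genes near the floor. An exact permutation test of 3 against 3 cannot go below p = 0.1 and was not used. Members at 0.5 RPKM or above in 3 or more of the 12 libraries were named, and the values of every library were given for those that were DEGs. The members and the lists were chosen with earlier results of these data known. The alternatives were a pseudocount of 1, no filter, all 12 libraries in one fit, the replicate number as a block, median-of-ratios scaling, a trend in eBayes, the omission of each library in turn and voom on recovered reads.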

Additional observations from a re-analysis of the deposited data

How the results depend on the processing

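No named member changed direction under any alternative in the comparisons where it had passed. With 1 RPKM added in place of 0.1, the number of DEG members was 7 in place of 12 for AH against NCS, 6 in place of 10 for AH against CCS, 2 in place of 9 for NCS against ACS, 3 in place of 5 for NCS against CCS and 0 in place of 2 for ACS against CCS, while 2 of the 125 calls on the adjusted p were lost, since the larger pseudocount shrinks the fold changes of genes near 1 RPKM. Leaving out 1 library at a time gave 12 to 12 DEG members for AH against NCS, 11 to 13 for AH against ACS, 9 to 10 for AH against CCS, 7 to 9 for NCS against ACS, 5 to 6 for NCS against CCS and 1 to 3 for ACS against CCS, the 1 being reached without ACS replicate 1 or CCS replicate 1. Under median-of-ratios scaling the DEG members were 12, 13, 9, 7, 5 and 3 in the same order, and the median log2 fold change of all genes moved from 0.07 to -0.03 in AH against CCS, from 0.08 to -0.03 in NCS against ACS and from 0.14 to -0.04 in NCS against CCS. Without the filter on low values 11 of the 125 calls were lost, 6 of them in ACS against CCS. Of the 125 calls, 107 were kept in all 7 alternatives that use every library. Members below 0.5 RPKM rest on few reads, and no difference between them should be read from RPKM alone.

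When the replicate number was entered as a block, the DEG members were 12, 13, 10, 9, 5 and 2 in the same order, the numbers found without the block, and 9 of the 125 calls on the adjusted p were lost. The labels do not state that a number marks a shared origin, and in no comparison did all 3 same-numbered pairs deviate together with a correlation above 0.1 over 17152 genes (mean 0.07, -0.19, -0.13, 0.10, 0.05 and 0.24), so the block was not used.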
